A study of Mus musculus with 11 samples.

Results

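Back skin with dermatitis fell into 2 sets by its content of growing hair, and the report describes the 6 hair-high samples against the 5 hair-low samples, 11 in all. The samples were chosen by their own expression values. The expected counts of 7 inner root sheath genes (Tchh, Krt25, Krt27, Krt28, Krt71, Krt72 and Krt73) were summed and divided by the total of each sample. This share was between 1.33% and 4.16% in the hair-high set and between 0.0357% and 0.293% in the hair-low set. The labels record no hair stage, so the sets are not a condition that the study set up.

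All samples were back skin of the mouse strain Tg(act-EGFP)Y01Osb, whose cells carry a ubiquitous EGFP transgene, with an age label of 16-18 that has no unit. The hosts received 10 Gy of irradiation and then, by tail vein, cells sorted out of the femoral marrow of Pdgfra-Cre;tdTomato donors, a cross that labels with tdTomato any lineage in which Pdgfra-driven Cre was active. Sorted cells were tdTomato-negative in 7 samples and tdTomato-positive in 4 samples, called negative and positive here. After 6 weeks of recovery, MC903 (calcipotriol), a vitamin D analog used to model atopic dermatitis, was applied 6 times, and skin was taken at day 14. No sample without MC903 or without irradiation was analysed here. The hair-high set held negative replicates 2, 3, 4, 5 and 6 and positive replicate 4. The hair-low set held negative replicates 1 and 7 and positive replicates 1, 2 and 3. Thus 5 of 7 negative and 1 of 4 positive samples were hair-high (two-sided Fisher's exact test, p = 0.2424). With 7 and 4 samples, in sets drawn from their own values, this test cannot show whether hair content and marrow group are related. The labels number the samples and do not say whether each is a separate animal, so the p-values reflect only how far these samples spread, which may be technical.

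A hair follicle cycles through growth (anagen), regression (catagen) and rest (telogen). In anagen, matrix cells at the base of the follicle, next to the dermal papilla, divide and differentiate into the hair shaft and the inner root sheath that moulds it. In skin, trichohyalin and the inner root sheath keratins are made mainly in that phase, whereas in telogen the follicle is a short club held by stem cells of the bulge and hair germ. Wnt, Sonic hedgehog and BMP signals between papilla and epithelium direct growth and differentiation. In mouse back skin, follicles enter anagen in patches, and the surrounding dermis, its vessels and its fat are remodelled over the cycle.

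The genes that define the sets encode trichohyalin, the protein that hardens the inner root sheath, and type I and type II keratins that pair into its filaments. Promoters of the 4 marker genes Tchh, Krt25, Krt27 and Krt71 are shown because these genes carry most of the counts behind the split. Each run is the 250 bases before the gene start in RefSeq on GRCm38.p6, read 5′ to 3′ on the strand of the gene. Capitals mark TATAAA on the given strand and AGATAA, a motif of GATA factors, on either strand. Tchh lies on the plus strand, and its run is chr3:93442080-93442329. Krt25 and Krt27 lie on the minus strand of the type I keratin cluster, at chr11:99322952-99323201 and chr11:99351119-99351368. Krt71 lies on the minus strand of the type II keratin cluster, at chr15:101743098-101743347.
Tchh: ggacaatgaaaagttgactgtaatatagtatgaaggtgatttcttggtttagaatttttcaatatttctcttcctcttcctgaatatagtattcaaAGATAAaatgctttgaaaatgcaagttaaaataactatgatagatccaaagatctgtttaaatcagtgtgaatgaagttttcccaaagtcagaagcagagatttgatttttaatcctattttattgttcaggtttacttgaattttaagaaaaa
Krt25: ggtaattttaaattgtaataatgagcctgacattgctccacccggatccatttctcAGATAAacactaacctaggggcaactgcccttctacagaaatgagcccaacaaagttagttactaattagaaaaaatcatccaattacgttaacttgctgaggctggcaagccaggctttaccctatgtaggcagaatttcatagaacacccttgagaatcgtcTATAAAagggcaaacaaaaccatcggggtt
Krt27: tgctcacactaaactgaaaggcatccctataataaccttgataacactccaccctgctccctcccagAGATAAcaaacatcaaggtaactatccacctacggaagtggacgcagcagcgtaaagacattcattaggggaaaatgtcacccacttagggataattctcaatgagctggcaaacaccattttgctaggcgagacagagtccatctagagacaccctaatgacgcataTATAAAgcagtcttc
Krt71: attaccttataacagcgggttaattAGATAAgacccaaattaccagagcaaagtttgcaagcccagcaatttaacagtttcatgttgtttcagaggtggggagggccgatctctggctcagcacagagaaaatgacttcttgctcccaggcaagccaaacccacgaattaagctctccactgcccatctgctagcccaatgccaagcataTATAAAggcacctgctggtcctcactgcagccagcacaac

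All 7 rule genes had a promoter in the RefSeq table, each 300 bases long with 50 bases after the start. TATAAA was present in 5 of 7 (71.4%), in 8.32% of all 32851 promoters of that length and in 5.40% of those of tested genes. In Krt25, Krt28 and Krt73 the motif began 30 bases before the gene start, in Krt71 40 bases and in Krt27 15 bases before it. AGATAA or its complement was present in 5 of 7 (71.4%), in 11.2% of all promoters and in 6.77% of those of tested genes. CTTTGAT, the core of the motif read by LEF1 and TCF factors, was present in 0 of 7, against 3.73% of all promoters. Of 51 tested keratin-associated protein genes, which encode the cement between shaft keratins, 46 had a promoter there, 37 of them (80.4%) with TATAAA and 10 (21.7%) with AGATAA. Of 15 hair shaft keratin genes, 9 had a promoter there, 5 of them (55.6%) with TATAAA and 0 with AGATAA. These counts describe letters in the windows and show no bound factor.

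Levels below are CPM, counts scaled to a common library size with TMM factors. For a gene, 3 values of the hair-high set are its lowest, median and highest sample. The 5 values of the hair-low set are given in a fixed order, negative replicates 1 and 7 and then positive replicates 1, 2 and 3. Tchh stood at 7429.8, 14969 and 23886 CPM in the hair-high set and at 1429.5, 266, 1776, 293 and 572 CPM in the hair-low set. Krt71 stood at 2616, 5316 and 8584 CPM and at 524, 42.9, 536, 101 and 158 CPM. The lowest hair-high sample was positive replicate 4 for each of the 7 genes, and no hair-low sample reached it. Krt25 stood at 1444, 2820.4 and 4137 CPM and at 274, 24.2, 298, 50.1 and 84.5 CPM. For Krt27 the values were 977, 2206 and 3288 CPM and 203, 17.3, 219.6, 34.8 and 56.4 CPM. Within the hair-low set the order was shared, with negative replicate 7 lowest and positive replicate 1 highest for all 4 markers. Krt28, Krt72 and Krt73 were less abundant, with medians of 402, 406 and 445 CPM in the hair-high set and 12.1, 9.45 and 15.4 CPM in the hair-low set. Per length, Krt71 and Tchh were close, with mean TPM of 4233 and 4203 in the hair-high set and 218.7 and 243.2 in the hair-low set.

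**Figure D1:**
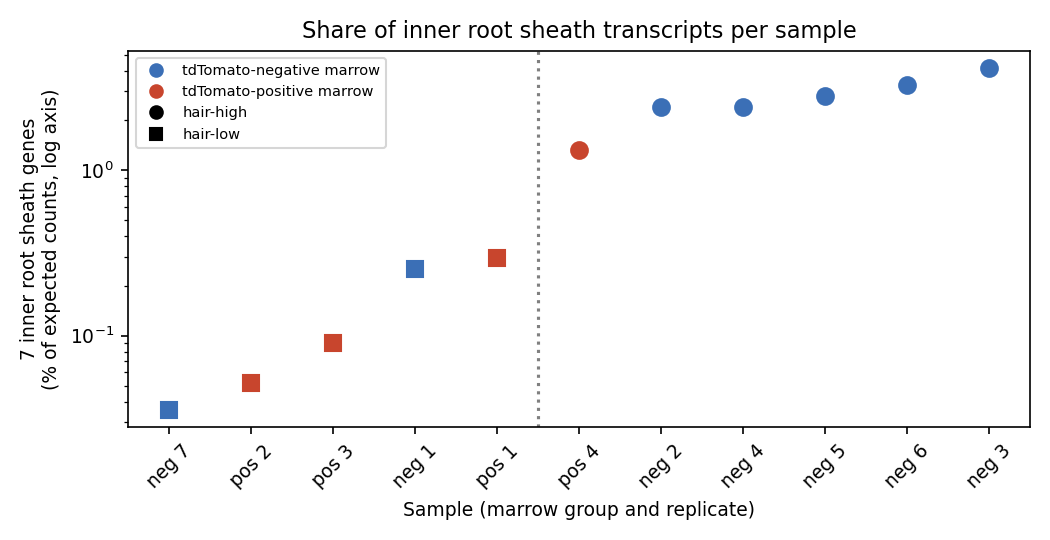
Share of the 7 inner root sheath genes among the expected counts of each sample (y axis, log scale), ordered by that share, with colour for the marrow group and shape for the set. The dotted line divides the sets between positive replicate 1 at 0.293% and positive replicate 4 at 1.33%.

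The mean share was 2.74 ± 0.951% (SD, n = 6) in the hair-high and 0.145 ± 0.119% (SD, n = 5) in the hair-low set. Just above the division stood positive replicate 4 at 1.33%, and the next hair-high samples were negative replicates 2 and 4 at 2.40% and 2.42%. Just below it stood positive replicate 1 at 0.293% and negative replicate 1 at 0.252%. The division was placed at the widest gap of this share, where the lowest hair-high share was 4.54 times the highest hair-low share. The same 2 sets came from the share of TPM and from the sum without Tchh. Both reuse the rule genes and the same reads, so they are not independent of the first split. Inner root sheath RNA was not at 0 in any hair-low sample: Tchh had 1998 counts or more and Krt71 323 or more in each. The markers do not show that follicles of the hair-low skin were all at rest. Total expected counts ranged from 7190752 to 9749842, with means of 7781020 in the hair-high and 8163050 in the hair-low set (two-sided exact permutation p = 0.481).

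The rest of the hair structure followed the rule genes and is described without a test, since these genes belong to the same growing structure. In whole skin, fewer cells of a type and less RNA per cell cannot be told apart, here or below. CPM are relative levels, so a larger part of follicle RNA in a sample can also lower those of other tissues. A fit whose scaling left out the hair structural genes is given at the end. The effect of other follicle RNA was not tested. All 15 tested hair shaft keratins lay higher in the hair-high set, with a median log2 fold change (hair-high minus hair-low, fitted beside marrow group) of 4.30. Krt86, a cortex keratin, stood at 252, 540.1 and 1133 CPM in the hair-high set and 45.3, 2.53, 39.5, 6.64 and 11.1 CPM in the hair-low set. Krt35, an early matrix and cuticle keratin, stood at 106, 169 and 323 CPM and 18.4, 1.73, 13.1, 4.22 and 3.29 CPM. As for the sheath genes, positive replicate 4 was the lowest hair-high sample, negative replicate 7 the lowest of all, and the sets did not overlap. The other 28 tested genes of shaft cuticle and cortex, mostly keratin-associated proteins, all lay above 0, with a median of 4.31. Krtap7-1 stood at 357, 811 and 1481 CPM and 49.2, 4.12, 57.6, 8.30 and 17.1 CPM, and Krtap8-1 at 406, 789 and 1348 CPM and 51.6, 3.72, 59.7, 7.92 and 16.6 CPM. Of 13 genes listed as other inner root sheath genes, not all of them confined to that layer, 11 lay above 0, with a median of 2.49. Among them, Dsg4, a desmoglein of the hair cortex, stood at 92.1, 127 and 218 CPM and 12.1, 1.33, 14.6, 2.94 and 4.52 CPM. Padi3, an enzyme that converts arginine of trichohyalin to citrulline, stood at 152, 300.4 and 509 CPM and 25.4, 1.99, 29.4, 6.64 and 8.94 CPM. Mt4, a metallothionein of stratified epithelium, stood at 42.4, 59.99 and 109.7 CPM and 10.04, 13.3, 7.48, 5.88 and 14.5 CPM. Tgm3, the transglutaminase that links trichohyalin, had a log2 fold change of 0.61 ± 0.27 (SE), and Rptn and Dsc1, also made in the granular layer of epidermis, lay below 0 at -1.05 and -0.14. Keratins and keratin-associated proteins form families of near copies, so counts of single members are uncertain where reads were divided between them.

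Beyond the hair structural genes, 14497 genes were tested with edgeR's quasi-likelihood test for a difference between the sets beside marrow group. An adjusted p under 0.05 was reached by 1130 higher genes (7.79%) and 766 lower genes (5.28%), 13.1% in all. Among these, 351 higher and 68 lower genes differed by 2-fold or more. The samples of the 2 sets did not overlap in 1104 genes in the higher direction (7.62%) and in 639 genes in the lower direction (4.41%). All 14497 genes together had a median of -0.0127 on this scale. The test asks which genes moved with hair content across these 11 samples, and genes of the follicle itself are not independent of the genes that made the sets. With upper quartile scaling the counts were 938 higher and 1044 lower, so the share of higher genes among those past the threshold was 47.3%, against 59.6% with the TMM scaling used here. The counts leaned on negative replicate 1, without which they were 572 and 164, and on negative replicate 7, without which they were 664 and 416. Without negative replicate 5 or 6 the lower genes numbered 501 or 422. Among 152 genes past the test that the naming rule or the text picked, 80 passed in each of the 11 fits that left out 1 sample.

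The sets were also compared within each marrow group. The positive group holds 1 hair-high sample, placed there by its own values, so only directions can be read in it. Among the 7 negative samples alone, 1069 genes were higher (7.37%) and 703 lower (4.85%) in the 5 hair-high samples. Of the 1069, 962 (90.0%) lay above 0 in the 4 positive samples, where 47.9% of all genes did. Of the 703, 617 (87.8%) lay below 0 there. The comparison in the positive samples rests on 1 hair-high sample, positive replicate 4, which exceeded all 3 hair-low positive samples in 830 of the 1069 genes, against 28.2% of all genes. It lay under all 3 in 363 of the 703, against 26.3% of all genes. A test of whether the difference itself changed with marrow group called 0 genes, with a smallest edgeR adjusted p of 0.811, 850 genes at an unadjusted p under 0.05 and 2 genes called by DESeq2. With hair set in the model, the marrow term called 0 genes (smallest edgeR adjusted p of 0.309, 1228 genes at an unadjusted p under 0.05). The leading principal component of all genes other than hair genes held 49.2% of the variance and placed hair-high samples between 4.65 and 46.6 and hair-low samples between -34.1 and -24.2.

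**Figure D2:**
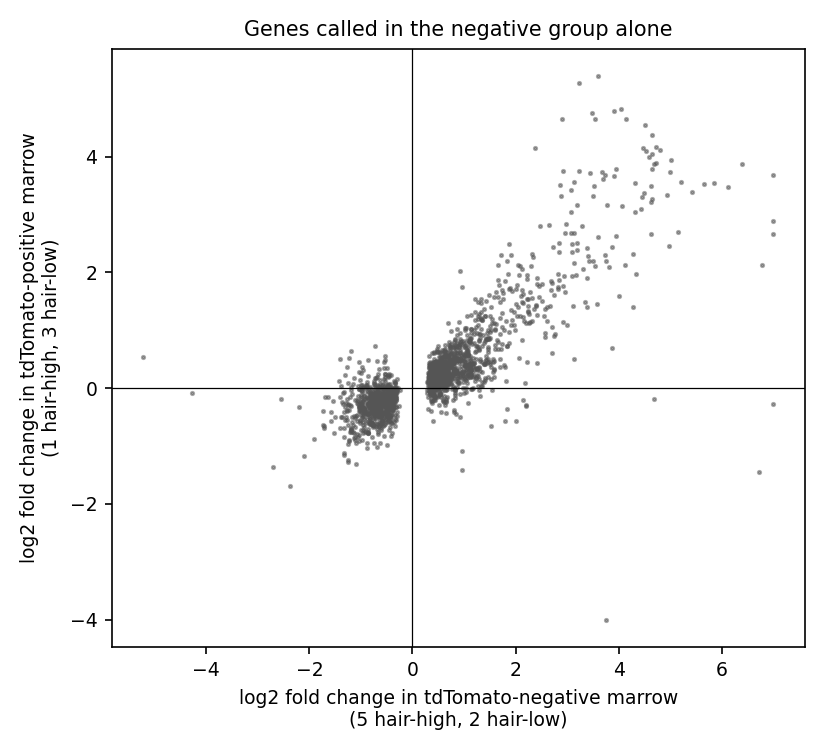
Each point is 1 of 1772 genes that passed the edgeR threshold among the negative samples alone, with its log2 fold change (hair-high minus hair-low) there on the x axis and in the positive samples on the y axis, 5 points beyond the axes being drawn at the edge. Most points lie in the upper right and lower left, and 962 of the 1069 higher genes lie above 0 on the y axis.

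Most transcription factors of the hair matrix rose. Of 19 in the list, 14 passed the threshold higher (73.7%, against 7.79% of all genes) and 1 lower, with a median log2 fold change of 1.45. One of the 14, Gata3, also stands in the inner root sheath list, and of the other 18 factors 13 rose and 1 fell, with a median of 1.64. Among genes with a mean of at least 5 CPM the median of the list was 0.62. Matrix factors belong to the growing follicle whose genes made the sets, and all lists were chosen with earlier results of these data known. The shares of this list and of the signalling lists below are therefore not independent support. Msx2, a homeobox factor of matrix and cortex, stood at 44.2, 64.2 and 97.4 CPM in the hair-high set and at 7.98, 4.25, 5.73, 3.58 and 3.90 CPM in the hair-low set. Msx2 had a log2 fold change of 3.44 ± 0.24 (SE), with edgeR adjusted p = 3.62e-05. It was 3.51 in the negative and 3.32 in the positive samples, and the sets did not overlap. Dlx3, a homeobox factor that acts downstream of Wnt in the hair shaft, stood at 157, 239.7 and 385 CPM and 41.7, 31.9, 33.1, 21.7 and 28.4 CPM. For Dlx3, the log2 fold change was 2.73 ± 0.20 (SE), with edgeR adjusted p = 3.71e-05. Hoxc13, a regulator of hair keratin genes, stood at 56.9, 93.4 and 131 CPM and 16.5, 18.9, 19.2, 14.6 and 15.3 CPM. Its hair-low samples kept within a narrow range, and positive replicate 4 was the lowest hair-high sample for Msx2, Dlx3 and Hoxc13 alike. Hoxc13 had a log2 fold change of 2.27 ± 0.17 (SE), with edgeR adjusted p = 4.05e-05.

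Foxn1, the factor missing in nude mice, whose hair shafts fail, stood at 35.5, 43.7 and 81.5 CPM and 14.03, 13.96, 10.3, 8.05 and 13.8 CPM. Foxn1 had a log2 fold change of 1.83 ± 0.23 (SE), with edgeR adjusted p = 0.000545. Cux1, a factor of inner root sheath progenitors, stood at 318, 448 and 566 CPM and 152, 157, 151, 153 and 137 CPM. Cux1 rose by less than Msx2, with a log2 fold change of 1.45 ± 0.13 (SE) (edgeR adjusted p = 8.22e-05), from a higher level. Msx1, Dlx2, Dlx4 and Foxe1 rose from hair-low means of 1.25 ± 0.107, 0.805 ± 0.417, 0.271 ± 0.143 and 0.303 ± 0.416 CPM, with log2 fold changes of 2.61, 3.06, 3.65 and 3.04. Smaller rises were seen for the vitamin D receptor Vdr (0.65), Prdm1 (0.50) and Ovol1 (0.46). Vdr, needed for the hair cycle and also the receptor of MC903, stood at 259, 298 and 359.6 CPM and 194, 195, 148, 194 and 180.3 CPM, and the sets did not overlap. The member that fell was Foxi3, a forkhead factor of hair placodes and hair germ, at 0.119, 0.481 and 1.27 CPM against 2.06, 3.32, 1.25, 2.94 and 2.47 CPM. For Foxi3, the log2 fold change was -2.19 ± 0.50 (SE), with edgeR adjusted p = 0.0149, and positive replicate 1 lay just within the hair-high range. Without negative replicate 7, 13 of the 19 were past the threshold higher and 0 lower. With either negative replicate 1 or positive replicate 4 left out, these counts were 13 and 1. Of the factors named here, Ovol1 lost its call without negative replicate 1 and Foxi3 without negative replicate 7.

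**Figure D3:**
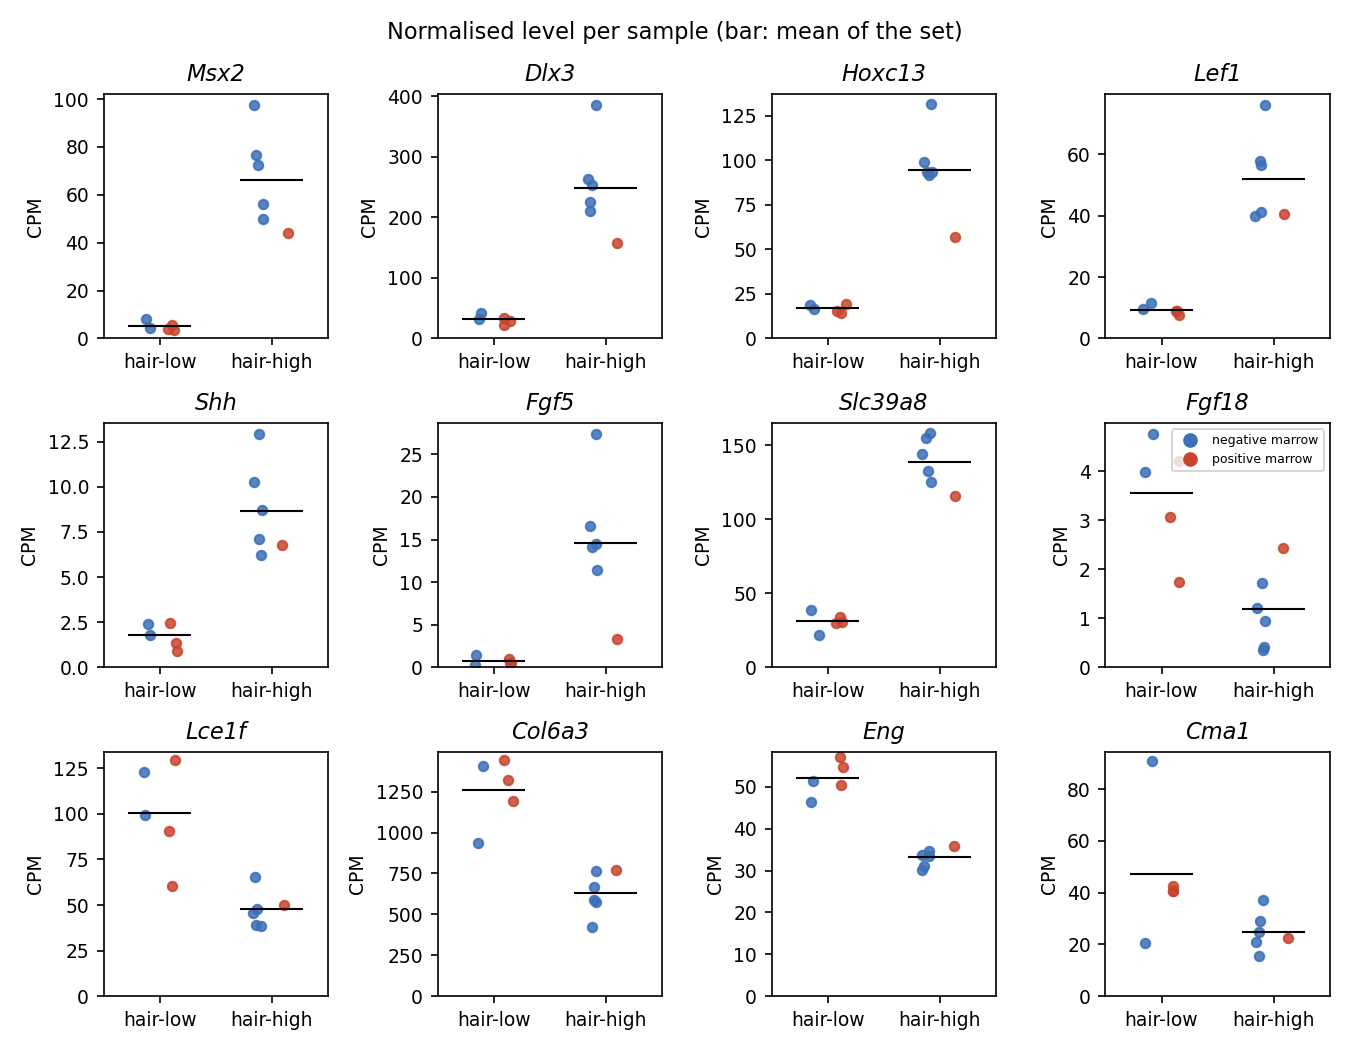
Level of 12 genes in each of the 11 samples (CPM, linear axes from 0), by set, with colour for the marrow group and a bar at the mean of the set. Msx2, Dlx3, Hoxc13, Lef1, Shh, Fgf5 and Slc39a8 do not overlap between sets, Col6a3 and Eng lie lower in all hair-high samples, and Fgf18, Lce1f and Cma1 overlap.

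Among all tested genes outside the hair genes, with a mean of at least 10 CPM and no overlap within either marrow group, those with the smallest p in the higher direction were Samd5, Slc30a1, Creb5, Msx2, Slc39a8, Dlx3, Hoxc13, Alcam, Id4 and Sp6. A pair of them are zinc transporters. Slc30a1, which exports zinc from the cell, stood at 207, 283 and 308 CPM in the hair-high set and 106, 93.7, 84.99, 91.5 and 86.9 CPM in the hair-low set. Slc30a1 had a log2 fold change of 1.41 ± 0.09 (SE), with edgeR adjusted p = 2.37e-05. Slc39a8, which imports zinc, stood at 116, 138 and 158 CPM and 38.9, 21.9, 33.8, 30.9 and 29.8 CPM. For Slc39a8, the log2 fold change was 2.11 ± 0.15 (SE), with edgeR adjusted p = 3.71e-05. For both transporters every hair-high sample was above every hair-low sample, as the rule for naming them favours. Samd5, a sterile alpha motif protein, stood at 42.5, 63.5 and 69.9 CPM and 16.99, 12.9, 15.3, 14.2 and 12.9 CPM, with a log2 fold change of 1.93 ± 0.12 (SE) (edgeR adjusted p = 2.37e-05). Creb5, a basic leucine zipper factor, stood at 30.7, 39.00 and 47.8 CPM and 11.8, 11.97, 11.6, 10.9 and 9.25 CPM. Sp6, a zinc finger factor needed for hair and teeth, stood at 81.3, 112 and 167 CPM and 31.7, 22.9, 18.6, 19.4 and 20.8 CPM. Alcam, a cell adhesion molecule, stood at 157, 167 and 178 CPM and 81.6, 89.8, 92.8, 90.5 and 83.9 CPM. The log2 fold changes of Creb5, Sp6 and Alcam were 1.69, 2.11 and 0.92.

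Wnt signalling drives entry into anagen and the making of the hair shaft. Of 51 tested pathway genes, 20 rose and 0 fell (39.2% against 7.79% of all genes), with a median log2 fold change of 0.32. Among ligands, Wnt10b, which promotes growth of the follicle, stood at 2.53, 4.32 and 4.59 CPM and 1.54, 1.99, 0.997, 0.639 and 1.23 CPM. Wnt10b had a log2 fold change of 1.49 ± 0.31 (SE) with edgeR adjusted p = 0.00881. Wnt11 stood at 13.6, 21.2 and 32.6 CPM and 8.11, 3.06, 4.98, 5.11 and 5.45 CPM, a log2 fold change of 1.81 ± 0.27 (SE) (edgeR adjusted p = 0.00139). Wnt5a, a noncanonical ligand of papilla and matrix, stood at 52.00, 65.9 and 78.5 CPM and 24.6, 24.9, 42.7, 24.8 and 20.9 CPM. None of these 3 ligands overlapped between sets, though positive replicate 1 came near for Wnt5a. Of the receptors, Fzd5 stood at 57.9, 105 and 135 CPM and 26.3, 19.8, 29.7, 20.8 and 27.8 CPM, with a log2 fold change of 1.89 ± 0.22 (SE) (edgeR adjusted p = 0.000336). Fzd3, Fzd1, Fzd10, Fzd2 and Fzd6 rose by 0.73, 0.75, 0.66, 0.53 and 0.34 on the log2 scale, and the co-receptor Lrp6 by 0.31. Lgr4 and Lgr5, receptors of R-spondins, rose by 0.59 and 0.58.

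The nuclear partner of beta-catenin, Lef1, stood at 39.8, 48.9 and 76.3 CPM in the hair-high set and at 11.7, 9.71, 8.85, 7.54 and 8.94 CPM in the hair-low set. For Lef1, the log2 fold change was 2.31 ± 0.19 (SE), with edgeR adjusted p = 5.11e-05. Ctnnb1, beta-catenin itself, rose by 0.39 and Tcf7l2 by 0.32. Inhibitors rose as well: Nkd2, which binds Dishevelled, by 1.53, and the secreted Sfrp1 and Wif1 by 0.93 and 0.65. Axin2, often used as a target of canonical Wnt signalling, had overlapping values, with 37.8, 43.6 and 61.8 CPM in the hair-high set and 52.3, 39.6, 29.2, 39.5 and 48.2 CPM in the hair-low set. Axin2 had a log2 fold change of 0.02 ± 0.17 (SE), with a 95% interval from -0.35 to 0.38 and edgeR adjusted p = 0.956. Of the Wnt genes named here, Fzd2, Fzd6, Fzd10, Lrp6 and Wif1 lost their calls without negative replicate 1, Tcf7l2, Lgr5, Fzd2 and Wif1 without negative replicate 7, and Wnt10b, Fzd10, Lgr5, Tcf7l2 and Wif1 without positive replicate 4. In the whole list, 15 genes rose without negative replicate 1, 16 rose and 2 fell without negative replicate 7, and 15 rose without positive replicate 4. Without positive replicate 1, 20 rose and 4 fell, and without both that sample and negative replicate 1, 3 fell.

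In the Sonic hedgehog pathway, through which the growing follicle signals to matrix and papilla, 5 of 14 tested genes rose (35.7%, against 7.79% of all genes) and 1 fell, with a median of 0.19. Shh, the ligand, was scarce, at 6.21, 7.91 and 12.9 CPM in the hair-high set and 1.80, 2.39, 1.37, 2.43 and 0.925 CPM in the hair-low set. For Shh, the log2 fold change was 2.11 ± 0.29 (SE), with edgeR adjusted p = 0.000896, and it was 2.09 in the negative and 2.11 in the positive samples. Shh did not overlap between sets. Ptch1, a receptor and a target of the pathway, rose by 0.76 and Gli3 by 0.64. Hhip, a membrane protein that binds the ligand, stood at 6.21, 9.21 and 14.5 CPM and 4.12, 4.65, 2.87, 4.98 and 4.93 CPM, and its highest sample was positive replicate 4. Gli1, the transcriptional target, had a log2 fold change of 0.52 ± 0.25 (SE) with edgeR adjusted p = 0.194, and its sets overlapped. The member that fell was the co-receptor Cdon, by 0.58. On leaving out negative replicate 1, and likewise without positive replicate 4, 4 genes rose and 0 fell. Ptch1 and Cdon were the members that lost their calls in these fits.

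The BMP pathway, which supports differentiation of the shaft and holds stem cells at rest, had 12 of 29 tested genes higher (41.4%, against 7.79% of all genes) and 2 lower (6.90% against 5.28%), with a median of 0.28. Bmp4, a ligand of papilla and matrix, stood at 11.9, 13.6 and 18.3 CPM and 5.54, 4.79, 4.11, 5.49 and 5.24 CPM, with no overlap. Bmp4 had a log2 fold change of 1.46 ± 0.16 (SE), with edgeR adjusted p = 0.000225. Bmp8a, scarce in the hair-low set at 0.515, 0.399, 0.249, 0.639 and 0.514 CPM, stood at 4.32, 5.87 and 9.43 CPM in the hair-high set, a log2 fold change of 3.49 ± 0.33 (SE) (edgeR adjusted p = 9.87e-05). Bmp2 and Bmp6 rose by 0.81 and 0.70, and the receptor Bmpr1a by 0.52. Bambi, a decoy receptor that is also counted in the Wnt list, stood at 27.6, 44.7 and 76.3 CPM and 6.69, 4.39, 6.73, 3.45 and 5.65 CPM. Among the inhibitory Smads, Smad6 rose by 1.36 and Smad7 by 1.11. The target Id4 stood at 37.99, 42.8 and 48.6 CPM and 16.2, 17.2, 15.2, 16.7 and 17.9 CPM, Id3 rose by 0.89 and Id1 by 0.51. Among the members that fell was follistatin, Fst (-0.52), a secreted antagonist of activin and BMP ligands. Fst stood at 22.1, 32.6 and 36.2 CPM in the hair-high set, under all hair-low samples at 47.9, 44.5, 42.6, 42.4 and 53.3 CPM. Without negative replicate 1, 9 genes rose and 0 fell, and Id1, Id3, Bmp6 and Fst were among those that lost their calls.

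Of 14 FGF ligands and receptors, 2 rose and 2 fell, 14.3% each way, against 7.79% and 5.28% of all genes. Fgf5, the signal that ends anagen and whose loss gives long hair, stood at 3.38, 14.3 and 27.4 CPM in the hair-high set and 1.42, 0.266, 0.997, 0.511 and 0.514 CPM in the hair-low set. For Fgf5, the log2 fold change was 3.56 ± 0.48 (SE), with edgeR adjusted p = 0.000813. The lowest hair-high value belonged to positive replicate 4, and the log2 fold change was 4.27 in the negative and 2.31 in the positive samples. Fgf18, a bulge factor of the resting follicle, stood at 0.358, 1.08 and 2.43 CPM against 4.76, 3.99, 1.74, 3.07 and 4.21 CPM. Fgf18 had a log2 fold change of -1.54 ± 0.44 (SE), with edgeR adjusted p = 0.0404, and positive replicate 1 lay under positive replicate 4. This call was lost without any one of 8 samples, negative replicates 1, 2, 3, 5, 6 and 7 and positive replicates 2 and 3. Fgfr3 rose by 0.80 and Fgfr1 fell by 0.43. In the Notch pathway, which sorts matrix cell fates, 4 of 18 rose (22.2%, against 7.79% of all genes) and 0 fell. Its target Heyl stood at 17.8, 31.3 and 47.4 CPM and 6.56, 8.78, 9.22, 7.41 and 7.29 CPM, a log2 fold change of 1.81 ± 0.24 (SE) (edgeR adjusted p = 0.000611). The target Hes1, the ligand Jag1 and the receptor Notch1 rose by 0.84, 0.56 and 0.55. The median of the FGF list was -0.17 and that of the Notch list -0.01, and 8 of 14 and 9 of 18 of their genes lay below 0. In the fit that omitted negative replicate 1, 1 FGF gene rose and 0 fell, and Notch1 lost its call.

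**Figure D4:**
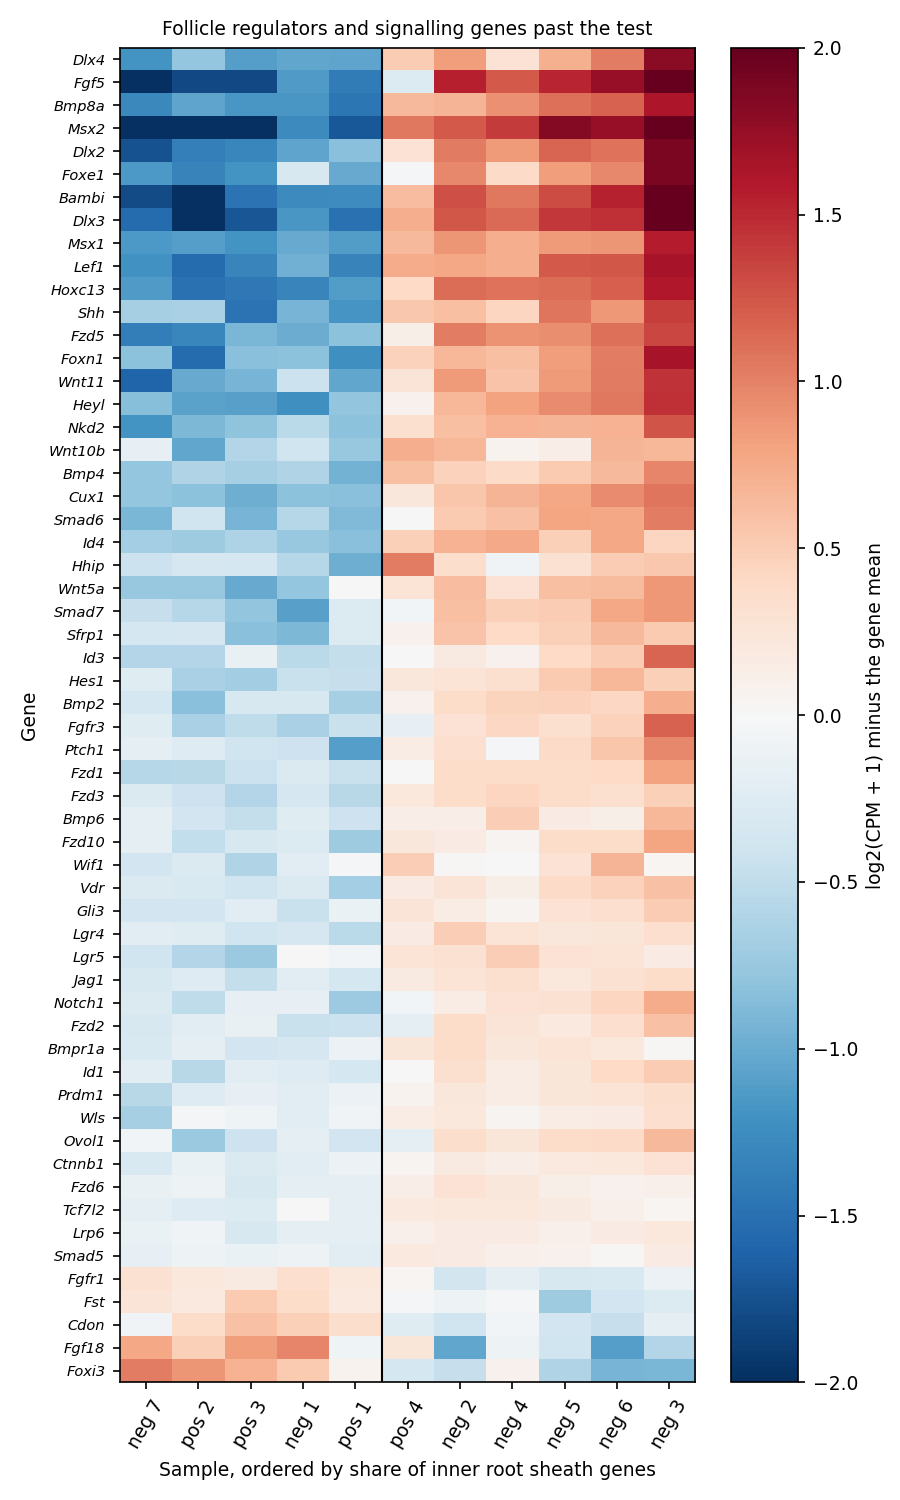
Levels of 58 genes past the edgeR threshold from the matrix transcription factor, Wnt, Sonic hedgehog, BMP, FGF and Notch lists (rows, 53 higher and 5 lower), as log2(CPM + 1) minus the mean of the gene, in samples ordered by their inner root sheath share (columns). The black line divides the sets, and positive replicate 4, just right of it, has paler colours than the negative hair-high samples for many genes.

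Genes of the outer layers and stem cells of the follicle, which persist through the cycle, were mixed. Of 12 outer root sheath and companion layer genes, 4 rose (33.3%) and 1 fell (8.33%), against 7.79% and 5.28% of all genes, with a median of -0.31. Krt75, the keratin of the companion layer that lies against the inner root sheath, stood at 235, 497 and 816 CPM in the hair-high set and 72.2, 36.3, 96.2, 34.2 and 57.1 CPM in the hair-low set. For Krt75, the log2 fold change was 2.91 ± 0.41 (SE), with edgeR adjusted p = 0.000973. Cdh3, P-cadherin of matrix and hair germ, rose by 0.87, Sox9 by 0.66 and the growth factor Tgfa by 0.92. Krt14 and Krt15, shared with the basal epidermis, had log2 fold changes of -0.57 and -0.59 that did not pass the test. In the bulge and hair germ list, 5 of 20 rose (25%) and 4 fell (20%), against 7.79% and 5.28% of all genes, with a median of -0.07. Lgr5, a marker of bulge and germ cells, stood at 44.1, 47.8 and 55.4 CPM and 39.5, 29.4, 37.8, 25.8 and 23.02 CPM, and Lhx2 and Barx2 rose by 0.71 and 0.65. Nfatc1, which keeps bulge stem cells quiescent, stood at 52.5, 55.9 and 74.01 CPM and 108, 109, 71.8, 91.6 and 118 CPM. Nfatc1 had a log2 fold change of -0.75 ± 0.14 (SE), with edgeR adjusted p = 0.00548, and only positive replicates 1 (hair-low) and 4 (hair-high) overlapped. Lgr6, Gas6 and Fgf18 also fell, with log2 fold changes of -0.66, -0.47 and -1.54. With either negative replicate 1 or negative replicate 7 left out, 2 bulge genes fell. The call of Lgr6 was lost without any one of 9 samples, that of Lhx2 without negative replicate 1, 5 or 6 or positive replicate 4, and that of Lgr5 without negative replicate 7 or positive replicate 4. Nfatc1 and Gas6 kept theirs whichever sample was left out.

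Of 24 dermal papilla and sheath genes, 4 rose (16.7%, against 7.79% of all genes) and 1 fell (4.17% against 5.28%), with a median of -0.17. Corin, a protease of the papilla, stood at 9.05, 12.5 and 22.2 CPM and 4.38, 2.93, 2.74, 2.94 and 2.57 CPM. For Corin, the log2 fold change was 1.91 ± 0.26 (SE), with edgeR adjusted p = 0.00088. Hhip, Wif1 and the actin gene Acta2, which the dermal sheath shares with smooth muscle, were the others that rose. The papilla marker Alpl, with overlapping sets, had a log2 fold change of 0.08 ± 0.18 (SE). Without negative replicate 1, 2 papilla genes rose and 0 fell. Of 35 cell cycle genes, 33 lay above 0, with a median of 0.49, and 6 rose (17.1%, against 7.79% of all genes). Mki67 stood at 459, 514 and 594 CPM in the hair-high set and 199, 401, 462, 417 and 345 CPM in the hair-low set. Mki67 had a log2 fold change of 0.65 ± 0.19 (SE), with edgeR adjusted p = 0.0411, and positive replicate 1 lay within the hair-high range. These calls rested on negative replicate 1, whose Mki67 was the lowest of all samples: without it 0 cell cycle genes passed and the median was 0.14. Mki67 also lost its call without any one of 8 other samples, and without negative replicate 6, 1 gene of the list passed. In polyamine synthesis, 1 of 11 genes rose (9.09%, close to the 7.79% of all genes), Azin1 by 0.50, with a median of 0.09, and without negative replicate 1, 5, 6 or 7 none passed.

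Melanocytes, which colour the shaft from the hair bulb in anagen, had 9 of 16 tested markers higher (56.2%, against 7.79% of all genes) and 1 lower, with a median log2 fold change of 1.26. Mitf, their master regulator, stood at 61.5, 64.7 and 68.6 CPM in the hair-high set and 43.3, 26.9, 35.8, 41.1 and 36.5 CPM in the hair-low set. For Mitf, the log2 fold change was 0.83 ± 0.12 (SE), with edgeR adjusted p = 0.00109. Ednrb, the endothelin receptor of melanocytes, stood at 72.96, 80.6 and 91.7 CPM and 32.8, 31.8, 42.7, 39.3 and 14.5 CPM, a log2 fold change of 1.33 ± 0.24 (SE) (edgeR adjusted p = 0.00382). Tyr, tyrosinase, stood at 4.19, 8.33 and 18.1 CPM and 2.83, 2.93, 1.99, 2.56 and 3.08 CPM. Tyr, Tyrp1, Trpm1, Slc45a2 and Oca2, genes of pigment synthesis and transport, rose by 1.54, 1.25, 2.01, 1.27 and 3.54, from hair-low means under 10 CPM each. Oca2 had 0 counts in negative replicate 7 and positive replicate 3, so its fold change is loosely set. The pigment enzyme gene Dct had a log2 fold change of 0.65 ± 0.40 (SE) and did not pass (edgeR adjusted p = 0.301). Kit, the receptor for stem cell factor, also made by mast cells, had 0.08 ± 0.23 (SE). Sox10, shared with Schwann cells, fell by 0.82. The melanocyte list had been seen to move with hair in these samples before, so its count is not independent support. On leaving out negative replicate 1 or negative replicate 7, 4 of its genes rose and 0 fell. Mitf and Ednrb kept their calls whichever sample was left out.

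Among the lists, lower genes were most numerous in the cornified envelope, the dermal matrix and the blood endothelium. The 10 lower genes of smallest p, under the same rule as above, were Fbln1, Plxnd1, Eng, Prex1, Dchs1, Tie1, Ecm1, Elovl1, Pam and Cacna1g. Fbln1, fibulin 1 of elastic matrix and basement membranes, stood at 45.1, 50.7 and 56.5 CPM in the hair-high set and 75.05, 76.9, 85.99, 86.7 and 79.1 CPM in the hair-low set. Fbln1 had a log2 fold change of -0.59 ± 0.07 (SE), with edgeR adjusted p = 0.00038. Plxnd1, a semaphorin receptor of vessels, stood at 64.3, 67.8 and 77.8 CPM and 103, 103, 109, 108 and 99.4 CPM, a log2 fold change of -0.55 ± 0.07 (SE) (edgeR adjusted p = 0.000545). Each of the 10 was lower in all 6 hair-high than in all 5 hair-low samples, as the rule for naming them favours. Their log2 fold changes ran from -1.04 for Cacna1g, a T-type calcium channel, to -0.51 for Elovl1, a fatty acid elongase. For the 10 higher genes the range was from 0.92 for Alcam to 3.44 for Msx2.

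Among 27 tested genes of fibroblasts and dermal matrix, 13 fell (48.1%, against 5.28% of all genes) and 1 rose, with a median log2 fold change of -0.60. The list's opposite course to hair was known beforehand in these samples and is not independent support. Col6a3, a chain of collagen VI, stood at 422, 627 and 772 CPM in the hair-high set and 1405, 934, 1325, 1444 and 1193 CPM in the hair-low set. For Col6a3, the log2 fold change was -0.89 ± 0.17 (SE), with edgeR adjusted p = 0.00503. Col6a1 and Col6a2, the partner chains, fell by 0.88 and 0.94 on the log2 scale, without overlap. Col3a1, a fibrillar collagen of dermis, stood at 3652, 4163 and 5507 CPM and 9952, 5889, 7415, 7221 and 6922 CPM, a log2 fold change of -0.83 ± 0.16 (SE) (edgeR adjusted p = 0.0067). Col5a1, Col5a2, Col1a1 and Col1a2 fell by 0.86, 0.70, 0.79 and 0.68, and negative replicate 1 was the highest sample for all 5 of these collagens. The fibroblast factors Twist1 and Twist2 fell by 0.90 and 0.74, and the collagen cross-linking gene Loxl1 by 0.72. Dpp4, a surface peptidase of upper dermal fibroblasts, rose by 0.80. Pdgfra, the gene used to mark the donor lineage and also expressed in skin fibroblasts, had 100.2, 117 and 156 CPM and 157, 126, 194, 190.0 and 124 CPM, a log2 fold change of -0.23 ± 0.14 (SE) (edgeR adjusted p = 0.305). In the fit that omitted negative replicate 1, 4 of the 27 fell and 0 rose. Col1a1 and Col1a2 lost their calls without any one of 7 samples, and Dpp4 lost its call without negative replicate 1, 5 or 6 or positive replicate 4.

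All 20 blood endothelial genes lay below 0, with a median of -0.49, and 11 fell (55%, against 5.28% of all genes). This list, too, was known to run opposite to hair. Eng, endoglin, stood at 30.3, 33.6 and 35.8 CPM in the hair-high set and 46.3, 51.5, 57.1, 54.8 and 50.4 CPM in the hair-low set. Eng had a log2 fold change of -0.59 ± 0.07 (SE), with edgeR adjusted p = 0.000545, and it was -0.58 in the negative and -0.60 in the positive samples. Tie1, an endothelial receptor, stood at 12.6, 13.3 and 15.5 CPM and 20.7, 25.9, 21.1, 22.6 and 23.1 CPM. Pecam1 and Cdh5, junction genes, fell by 0.56 and 0.42, Vwf by 0.76 and the VEGF receptor Kdr by 0.40. Summed over the list, hair-high samples held 431 to 571.4 CPM and hair-low samples 679.7 to 757.3 CPM, without overlap. Without negative replicate 1, 5 of the 20 fell, and Vwf and Kdr lost their calls, while Eng, Tie1, Pecam1 and Cdh5 kept theirs whichever sample was left out. Of 18 VEGF and angiogenesis genes, 1 rose (5.56%, Nrp2 by 0.30) and 3 fell (16.7%), against 7.79% and 5.28% of all genes. Their median was -0.28, and none passed without negative replicate 1. The ligand Vegfa had a log2 fold change of -0.55 ± 0.24 (SE) (edgeR adjusted p = 0.151). All 8 lymphatic endothelial genes lay below 0, with a median of -0.50, and none passed. Without negative replicate 1 their median was -0.19, and without negative replicate 7, 3 fell.

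Pericytes and smooth muscle had 2 of 13 genes higher and 2 lower, 15.4% each way, against 7.79% and 5.28% of all genes (median -0.41): Acta2 and Tagln rose by 0.53 and 0.58, while Myh11 and Pdgfrb fell by 0.60 and 0.63. With negative replicate 1 left out, 0 rose and 1 fell. In Schwann cells and nerve, 5 of 12 fell (41.7%, against 5.28% of all genes) and 0 rose, with a median of -0.36. Cdh19, a cadherin of the Schwann cell lineage, stood at 3.22, 4.25 and 5.75 CPM and 11.7, 8.11, 6.48, 6.39 and 8.22 CPM, a log2 fold change of -0.95 ± 0.22 (SE) (edgeR adjusted p = 0.0151). On leaving out negative replicate 1 none of the nerve genes passed. Skeletal muscle, from the muscle sheet under the skin, had 0 of 22 genes past the test and a median of -0.47, which was -0.03 without negative replicate 7. Its summed level was 6567 to 15020 CPM in hair-high and 9869 to 23620 CPM in hair-low samples. Dermal fat, which thickens in anagen, had 0 of 23 genes past the test and a median of -0.26. In the negative samples that median was -0.54 and in the positive samples 0.16, and without positive replicate 4 it was -0.54 and 6 fat genes fell. Adipoq stood at 34.9, 43.1 and 81.3 CPM and 52.3, 46.5, 59.3, 59.5 and 85.1 CPM, and the sets overlapped. In the sebaceous gland list, 2 of 15 rose (13.3%) and 1 fell (6.67%), against 7.79% and 5.28% of all genes, with a median of -0.47. The genes that rose were Fads2, a fatty acid desaturase, by 1.76, and Prdm1, which is also counted among the matrix factors. Awat2, a wax synthase, fell by 0.97. The call of Awat2 was lost without negative replicate 1, 2, 5 or 6 or positive replicate 4.

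Of 36 genes of the cornified envelope and late differentiation, 14 fell (38.9%, against 5.28% of all genes) and 0 rose, with a median of -0.72. The other 22 did not pass, and 6 of the 36 lay above 0. Alox12b, a lipoxygenase of the lipid barrier, stood at 16.98, 24.8 and 31.2 CPM in the hair-high set and 52.00, 69.7, 50.6, 42.5 and 72.2 CPM in the hair-low set. For Alox12b, the log2 fold change was -1.16 ± 0.19 (SE), with edgeR adjusted p = 0.00234. Lce1f, a late cornified envelope gene, stood at 38.4, 46.7 and 65.5 CPM and 99.6, 123, 60.4, 90.5 and 129.6 CPM, a log2 fold change of -1.12 ± 0.21 (SE) (edgeR adjusted p = 0.00509). Positive replicate 1 was the lowest hair-low sample and lay under hair-high negative replicate 4. Lce3c, of the group induced in disturbed epidermis, stood at 8.76, 19.3 and 26.1 CPM and 47.8, 42.4, 46.98, 33.5 and 54.4 CPM, with no overlap. Lce3e and Sprr1b fell by 1.33 and 1.11, and the protease Asprv1 by 0.65. Loricrin (Lor) and Flg2, main proteins of the envelope and granules, had log2 fold changes of -0.82 ± 0.39 (SE) and -0.25 ± 0.28 (SE) and did not pass (edgeR adjusted p = 0.181 and 0.581). Late cornified envelope genes are near copies of each other, so their counts are uncertain. Without negative replicate 1, 6 of the 36 fell, and without negative replicate 7, 8 fell. Lce3e and Asprv1 lost their calls without negative replicate 1 or positive replicate 4, and Sprr1b without negative replicate 1 or 7.

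Of 19 basal and spinous genes, 2 rose (10.5%, against 7.79% of all genes) and 4 fell (21.1% against 5.28%), with a median of -0.21. Krt1, the suprabasal keratin, stood at 1579, 3074 and 5347 CPM and 7888, 9951, 4669, 5879.7 and 10696 CPM. Krt1 had a log2 fold change of -1.15 ± 0.33 (SE), with edgeR adjusted p = 0.0399, and positive replicate 1 lay under negative replicate 4 and positive replicate 4. Krt10, its partner, had -1.15 ± 0.45 (SE) (edgeR adjusted p = 0.107). The hemidesmosome genes Itgb4 and Col17a1 fell by 0.42 and 0.41, and Trp63, the p63 factor of epidermal progenitors, rose by 0.28. In the fit that omitted negative replicate 1 none of the 19 passed, and without negative replicate 7, 0 rose, 1 fell and the median was -0.06. Among 14 stress keratins and alarmins, 1 rose and 1 fell, 7.14% each way, close to the 7.79% and 5.28% of all genes, with a median of -0.60. Krt16, a keratin of irritated epidermis that is also made in the outer root sheath, stood at 508, 1916 and 2343 CPM and 2960.0, 4906, 4514, 3173 and 3593 CPM, a log2 fold change of -1.11 ± 0.33 (SE) (edgeR adjusted p = 0.0474). The sets did not overlap, but the call was lost on leaving out any one sample other than negative replicate 3. S100a7a, an antimicrobial S100 protein, rose by 2.66, from 4.12, 2.13, 6.60, 1.41 and 1.44 CPM to 11.9, 24.7 and 38.8 CPM.

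Of 12 tested genes of the MC903 and vitamin D response, 2 rose (16.7%, against 7.79% of all genes) and 1 fell (8.33% against 5.28%), with a median of -0.10. Cyp24a1, the vitamin D hydroxylase that calcipotriol induces, stood at 51.6, 66.5 and 168 CPM in the hair-high set and 23.3, 120.5, 281, 27.1 and 154 CPM in the hair-low set. For Cyp24a1, the log2 fold change was -0.18 ± 0.72 (SE), with a 95% interval from -1.75 to 1.39 (edgeR adjusted p = 0.892), which leaves large differences in either direction possible. Tslp, the keratinocyte cytokine of this model, was low at 0.673, 1.44 and 5.13 CPM and 1.29, 1.86, 2.99, 1.53 and 2.26 CPM, with a log2 fold change of 0.27 ± 0.54 (SE). The members that rose were Vdr and the calcium channel Trpv6 (1.18), and Rxra fell by 0.33. Trpv6 and Rxra lost their calls without negative replicate 1 or 7, and Rxra without any one of 6 more samples. The list median was 0.30 without positive replicate 4. Of 22 type 2 inflammation genes, 1 passed the threshold, Gata3, which also stands in the inner root sheath list, and of the other 21 none passed, with a median of -0.36. Il33 and Il4ra, an alarmin and the receptor of interleukin 4, had log2 fold changes of -0.86 ± 0.36 (SE) and -0.29 ± 0.21 (SE) and did not pass.

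Leukocyte lists had medians below 0 with all samples, but several medians depended on 1 sample. Of 28 macrophage and monocyte genes, 25 lay below 0 and 1 fell, Il34, a ligand of their receptor that epidermis makes, by 0.70 (3.57%, against 5.28% of all genes), with a list median of -0.43. Without positive replicate 3, 7 fell, and without negative replicate 1, 0 fell. Csf1r, that receptor, stood at 105, 133 and 150.3 CPM and 168, 181, 267, 236 and 136 CPM, with edgeR adjusted p = 0.0785. Mast cell genes had the lowest median of the lists, -1.01, but 0 of 13 passed. Cma1, mast cell chymase, stood at 15.5, 23.6 and 37.1 CPM in the hair-high set and 90.7, 20.7, 42.7, 40.5 and 40.7 CPM in the hair-low set. Cma1 had a log2 fold change of -1.05 ± 0.34 (SE), with edgeR adjusted p = 0.0634. The sets overlapped through negative replicate 7, and negative replicate 1 stood far above the rest, without which the list median was -0.26. Without negative replicate 7, 5 mast cell genes fell. T cells (0 of 23, median -0.29), Langerhans and dendritic cells (0 of 22, -0.26), neutrophils and eosinophils (0 of 14, -0.19) and type I interferon response genes (0 of 26, -0.22) gave no call. Without positive replicate 4 the T cell median was 0.05 and the neutrophil median 0.36, and the interferon median was -0.000306. Without negative replicate 1 the T cell median was -0.07 and the neutrophil and interferon medians -0.55 and -0.53. The neutrophil median was 0.19 without positive replicate 1. For these the marrow groups differed in sign or size: the interferon median was -0.004 in the negative and -0.89 in the positive samples, and the neutrophil median 0.36 and -1.20. Those positive medians rest on positive replicate 4 alone, and the difference between groups was not tested for lists. Of 15 genes of MHC class I and immune privilege, 1 fell (6.67%, close to the 5.28% of all genes), H2-T23 by 0.40. The median of that list was -0.26, and -0.04 without positive replicate 4. Of the B and plasma cell list 8 of 12 members were not tested. Of the 4 tested, 1 rose (25%, against 7.79% of all genes), the syndecan Sdc1 by 0.33, which keratinocytes also make (median -0.57). Both calls were lost without negative replicate 1 or 6.

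**Figure D5:**
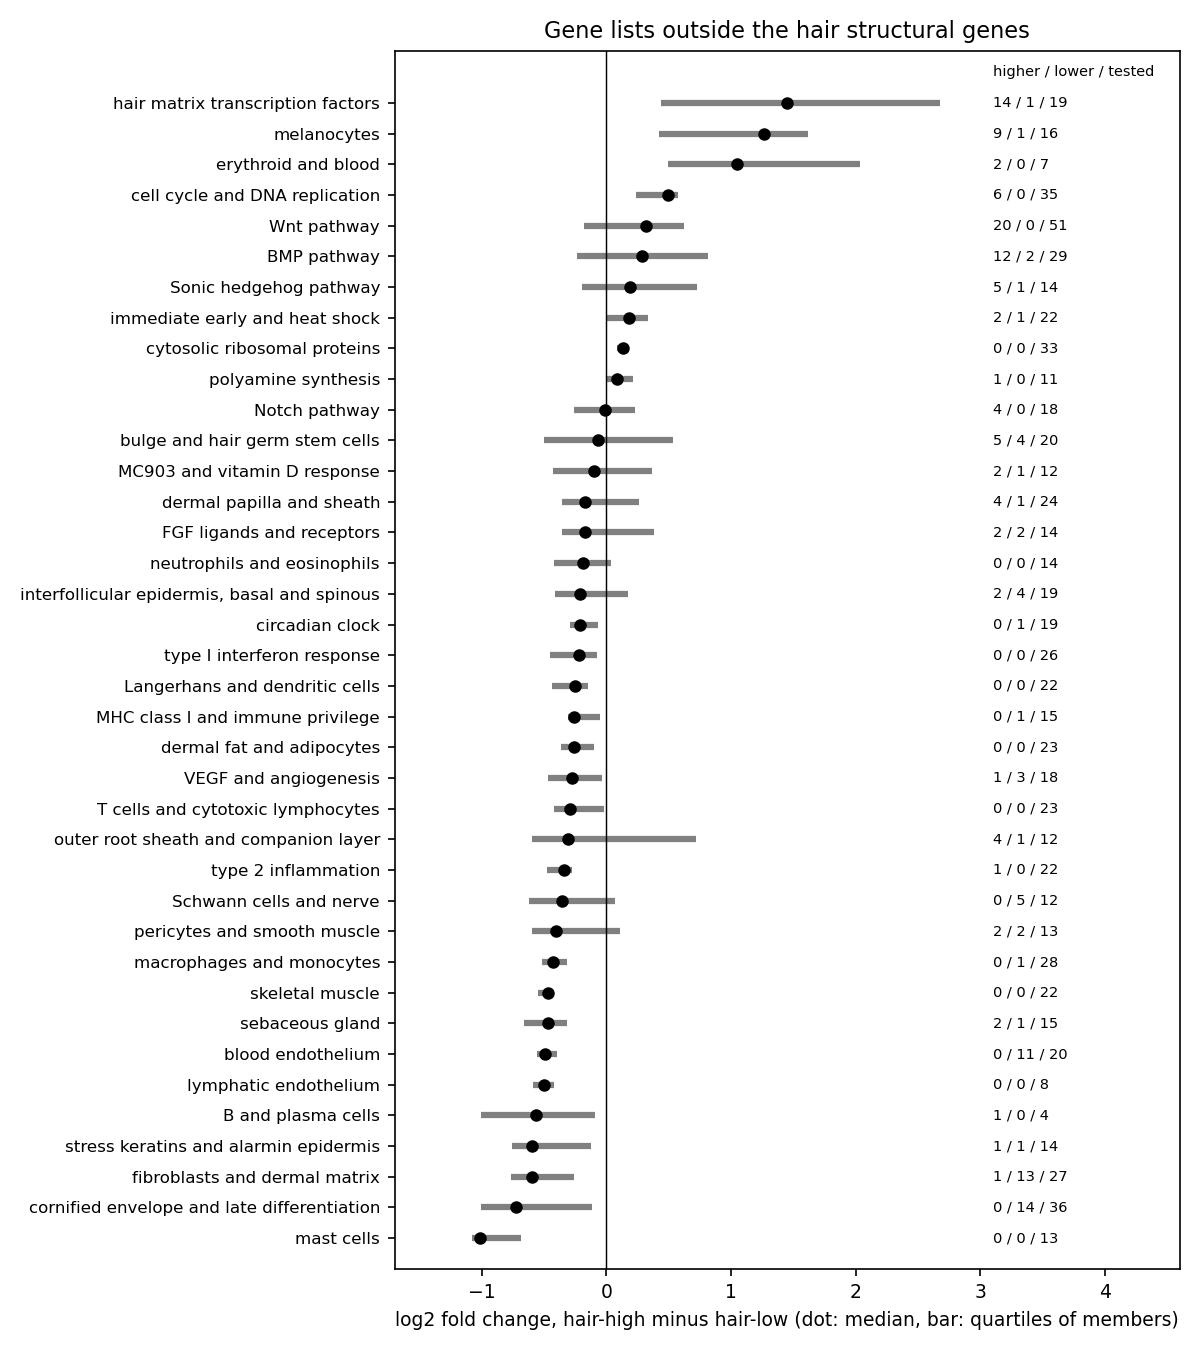
Median (dot) and quartiles (bar) of the log2 fold changes of each gene list outside the hair structural genes, with the numbers of genes higher, lower and tested by edgeR at the right. Matrix transcription factors (1.45) and melanocytes (1.26) lie at the top, and fibroblasts and matrix (-0.60), cornified envelope (-0.72) and mast cells (-1.01) at the bottom, the last with 0 genes past the test.

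Of 19 circadian clock genes, 1 fell (5.26%, against 5.28% of all genes), Nr1d1 by 0.76, with a median of -0.21, a call lost without any one of 7 samples. Of 22 immediate early and heat shock genes, which respond to handling of tissue, 2 rose, Egr1 by 1.15 and Egr3 by 0.46, and 1 fell, Hspa1b by 0.34, with a median of 0.18. These shares, 9.09% and 4.55%, were close to the 7.79% and 5.28% of all genes. Without positive replicate 4, 5 rose and the median was 0.40. Of these, Egr3 kept its call whichever sample was left out. Of 33 cytosolic ribosomal protein genes, 32 lay above 0 and 0 passed, with a median of 0.13 that was -0.02 without negative replicate 7. Of 7 tested erythroid and blood genes, 2 rose (28.6%, against 7.79% of all genes), with a median of 1.05. Slc4a1, the band 3 anion exchanger of red cells and of some epithelia, stood at 6.89, 15.3 and 24.3 CPM in the hair-high set and 2.32, 0.266, 2.74, 0.511 and 0.925 CPM in the hair-low set. For Slc4a1, the log2 fold change was 3.16 ± 0.49 (SE), with edgeR adjusted p = 0.00176. The beta globin gene Hbb-bs stood at 4.53, 10.8 and 23.1 CPM in the hair-high set and 0, 0, 12.96, 44.6 and 0 CPM in the hair-low set, highest of all in positive replicate 2, and did not pass (edgeR adjusted p = 0.349). Alas2, the erythroid enzyme of haem synthesis, rose by 0.72, a call lost without negative replicate 1, 5, 6 or 7 or positive replicate 4. Slc4a1 kept its call whichever sample was left out.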

How the data were processed

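Total RNA of the 11 skin samples was depleted of ribosomal RNA and sequenced. Per the file headers, the authors deposited RSEM expected counts per gene and TPM (transcript levels scaled by length). The submitters' processing notes name GRCm38, bcl2fastq, Trim Galore and RSEM, without versions. The aligner and the setting for strand were not given in the sources used here. Without the strand setting, antisense and overlapping genes cannot be told apart, and near copies share reads. Each expected count was rounded to a whole number, where 7.93% to 8.53% of genes per sample held values that were not whole (tolerance 0.005). Deposited TPM served for levels per length and for 1 alternative.

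Hair sets were formed at the widest gap of the rule share on the log2 scale. Of 24411 genes, 14588 passed the low-count filter of edgeR (minimum count 10, minimum total 15, by marrow group), 14497 of them outside the rule genes, other hair structural lists and keratin-associated proteins. EdgeR 4.0.16 (R 4.3.3) fitted TMM-scaled counts of all genes with marrow group and hair set, with Benjamini-Hochberg adjustment and a threshold of 0.05. Rule and hair structural genes were left out of the counts over all genes, and their lists are described without a test. Of them Gata3, Trps1, Rptn and Tgm3 also stand in other lists and are counted there, where only Gata3 passed the threshold. The members and the 42 lists (831 of 842 symbols found) were chosen with earlier results of these data known. Genes were named by rule: the rule genes, up to 4 members per list of smallest p (in hair structural lists, of highest mean CPM), and the 10 higher and 10 lower genes of smallest p with a mean CPM of at least 10, a symbol other than a clone name and no overlap within either marrow group. Other list members that the text names, such as Foxi3 and Lce3c, were chosen after their values were seen. Some genes stand in several lists, and a few that passed are not reported here by name or in the heat map.

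In counts simulated for this comparison (14470 genes), edgeR recovered 32.84%, 76.12% and 98.48% of 1.5-, 2- and 4-fold changes with 6 false among 144 calls. Only 200 genes were changed there, as many up as down, and none of them scarce. On the same counts DESeq2 had 19 false among 174 calls. Where no gene was changed, DESeq2 made 11 calls and edgeR 0. In the real comparison 1896 genes passed, so these rates need not hold for it, nor for genes at a few counts. Alternatives used DESeq2 1.42.0, limma 3.58.1, other scalings, filters and designs, and left out single samples. No 2 samples agreed within sampling noise (lowest chi-square per degree of freedom 3.43).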

Additional observations from a re-analysis of the deposited data

Results flagged for a closer look

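In 88 sets of values (summed CPM of each list and sample totals, within each hair set), 7 held a sample far from the others, and chance gives about 4.4. In the hair-high set, negative replicate 3 was highest for the summed Sonic hedgehog list at 635.9 CPM (others 526.1 to 566.4) and for the summed FGF list at 491.8 CPM (others 359.3 to 386.6). The same sample was lowest for the summed cornified envelope list at 8196 CPM, and it had the highest rule share of all samples, 4.16%. Positive replicate 4 was lowest for the MC903 and vitamin D list at 1471 CPM (others 1958 to 2207). Negative replicate 2 was highest for neutrophils and eosinophils at 673.5 CPM (others 96.87 to 276.7). In the hair-low set, negative replicate 7 was lowest for T cells at 63.56 CPM (others 121.1 to 137.2). Positive replicate 3 had the highest total expected count, 9750000 when rounded.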

How the results depend on the processing

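The split of 6 and 5 samples was the same by share of TPM and without Tchh, which both reuse the rule genes. Against 1130 higher and 766 lower genes, the counts were 1302 and 1006 with DESeq2, 1133 and 701 with limma-voom, 938 and 1044 with upper quartile scaling, and 896 and 932 among genes with a mean of at least 5 CPM. With scaling that left out the rule and hair structural genes they were 1096 and 779, and without marrow group in the model 1699 and 1469. In the positive samples alone they were 0 and 0 (smallest edgeR adjusted p 0.113, 1004 genes at an unadjusted p under 0.05), with 1 hair-high sample. Leaving out 1 sample at a time gave 572 to 1268 higher and 164 to 964 lower genes, the lowest without negative replicate 1. Without both hair-low samples nearest the division, negative replicate 1 and positive replicate 1, they were 634 and 230 (chosen after seeing the data). Every gene called in both fits kept its direction in each of these alternatives. The interaction with marrow group had 0 genes in edgeR and 2 in DESeq2. The causes of these differences were not tested.

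The replicate number as a block gave 109 higher and 54 lower genes, of which 143 were among those of the model without it. That fit spends a coefficient on each replicate number and leaves few degrees of freedom, so its counts cannot be compared directly with the others. In it the blood endothelium and melanocyte lists had 0 calls, and 4 Wnt genes and 1 BMP gene were higher. In the same fit 7 matrix factors were higher, and 8 cornified envelope and 6 dermal matrix genes were lower. Deviations of same-numbered samples of the marrow groups correlated at -0.0403, -0.143, -0.0568 and 0.349 for numbers 1 to 4. Once hair set was also removed, the correlations were -0.13, 0.204, 0.355 and 0.0847. No reference for unpaired samples was computed, so these values cannot show whether the numbers pair the samples. The main model took the samples as unpaired. A single gene was counted as the same if it kept direction and side of the threshold. A list median was counted as the same if it shifted by less than the residual spread between samples, whatever its sign. By these rules 6042 values were the same, 697 lost the call and 121 gained it. Another 144 moved beyond the spread or changed sign without having passed, and no named gene past the threshold changed direction. Of all 1896 genes past it, 6 had the opposite sign in the positive samples alone and 3 under the replicate block. Limits are 5 and 6 samples a set, 1 hair-high positive sample, and totals of 7190752 to 9749842 counts, which leave genes under a few CPM loosely set.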
